A study of Mus musculus with 2 samples.

Results

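The genes described here are 6 candidates that have been named for autoimmune susceptibility in NOD mice: *Slc11a1*, *Ptpn22*, *Cd101*, *Tnfrsf9*, *Il2ra* and *Cd93*. They were taken by symbol from the 50768 genes of 2 single-cell RNA sequencing (scRNAseq) libraries, and all 6 were present in both. One library came from NOD/ShiLtJ mice (written NOD/ShiltJ in the labels), an inbred strain that develops autoimmune diabetes and salivary gland inflammation, and the other from outbred CD1 control mice. Both strains were untreated females of 20 weeks, and the submandibular and sublingual glands of a strain were combined into 1 library. The pool size is 4 mice in the study's methods and 3 in the labels. Epithelial cells and red cells were removed with EpCAM and Ter119 antibodies on beads, so the libraries hold what was left, which the labels call stromal enriched. With 1 library per strain there is no replicate. No difference between the strains was tested, and differences between alleles, in read mapping between strains and in expression cannot be told apart.

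The 6 genes act at different points of an immune response. *Il2ra* encodes the alpha chain of the high-affinity interleukin-2 receptor, which regulatory T cells carry at high levels and other T cells gain on activation. *Tnfrsf9* encodes 4-1BB (CD137), a costimulatory receptor of activated T and natural killer (NK) cells. *Cd101* encodes an immunoglobulin superfamily protein of T cells and myeloid cells that has been linked to inhibition of T cell activation. *Ptpn22* encodes a tyrosine phosphatase of blood cells that acts with the kinase Csk to restrain Lck and Zap70 downstream of the T cell receptor. *Slc11a1* (formerly Nramp1) encodes a metal ion transporter of the phagosome membrane of macrophages, and *Cd93* a C-type lectin-like glycoprotein of endothelial cells and some myeloid cells. Each has been put forward as a candidate in the diabetes susceptibility literature, most of them at Idd (insulin-dependent diabetes) loci of the NOD mouse. *Slc11a1* lies on chromosome 1, *Il2ra* and *Cd93* on chromosome 2, *Ptpn22* and *Cd101* on chromosome 3 and *Tnfrsf9* on chromosome 4.

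Barcodes with at least 500 unique molecular identifiers (UMIs, which count RNA molecules) and at least 300 genes were used, 6500.0 in the NOD library and 7014 in the CD1 library, with medians of 5719.5 and 6495 UMIs. A barcode was given the name of the marker list with the most UMIs, with "-like" added, and 4 lineages had at least 50 barcodes in both libraries. These were T-like (1846 NOD and 86 CD1 barcodes), NK-like (574 and 366), macrophage-like (724 and 2952) and endothelial-like (1066 and 2887) barcodes. Genes of a list were high under its name, as the naming itself ensures. *Cd3e* was at 569 and 571 CPM (UMIs per 1000000 UMIs) in T-like barcodes of NOD and CD1. *Csf1r* was at 744 and 961 CPM in macrophage-like barcodes. Leading genes outside the lists included, in both libraries, *Themis* and *Bcl11b* in T-like, *Klra4* in NK-like, *Cx3cr1* in macrophage-like and *Adgrl4* in endothelial-like barcodes. Markers of other lineages were present as well, T markers more so in NOD and macrophage markers in endothelial-like barcodes more so in CD1 (*Csf1r* at 4.02 and 11.8 CPM). *Cd3e* stood at 17.2 CPM in NOD and 0.790 CPM in CD1 macrophage-like barcodes, at 16.9 and 0.914 CPM in endothelial-like and at 95.7 and 16.0 CPM in NK-like barcodes. Droplets with 10 to 100 UMIs, taken as empty, give the level of each gene in free RNA. The libraries share 18 cell barcodes.

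Each level below is the sum of a gene's UMIs over the barcodes of a lineage in a library, as CPM of that lineage. Levels are compared between lineages and libraries for 1 gene at a time. Log2 ratios are NOD over CD1, so values above 0 are higher in the NOD library. Brackets hold 95% intervals, which reflect the counting of UMIs alone, taken as independent, and not how barcodes or mice vary. By the mean CPM of both libraries, *Slc11a1* was highest in macrophage-like barcodes, *Cd93* in endothelial-like, *Tnfrsf9* in NK-like and *Ptpn22* and *Cd101* in T-like barcodes among the 4 lineages, and *Il2ra* in macrophage-like barcodes. In CD1 alone *Ptpn22* was at 468 CPM in NK-like and 447 CPM in T-like barcodes, with overlapping intervals. The lineage with the highest CPM did not always hold the most UMIs. In NOD, T-like barcodes held 41.6% of the *Il2ra* UMIs against 23.4% in macrophage-like, and 40.8% of the *Tnfrsf9* UMIs against 29.3% in NK-like barcodes. In CD1, NK-like barcodes held 47.9% of the *Ptpn22* UMIs against 7.68% in T-like, and macrophage-like barcodes held 63.0% of the *Cd101* UMIs against 3.44% in T-like barcodes.

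**Figure D1:**
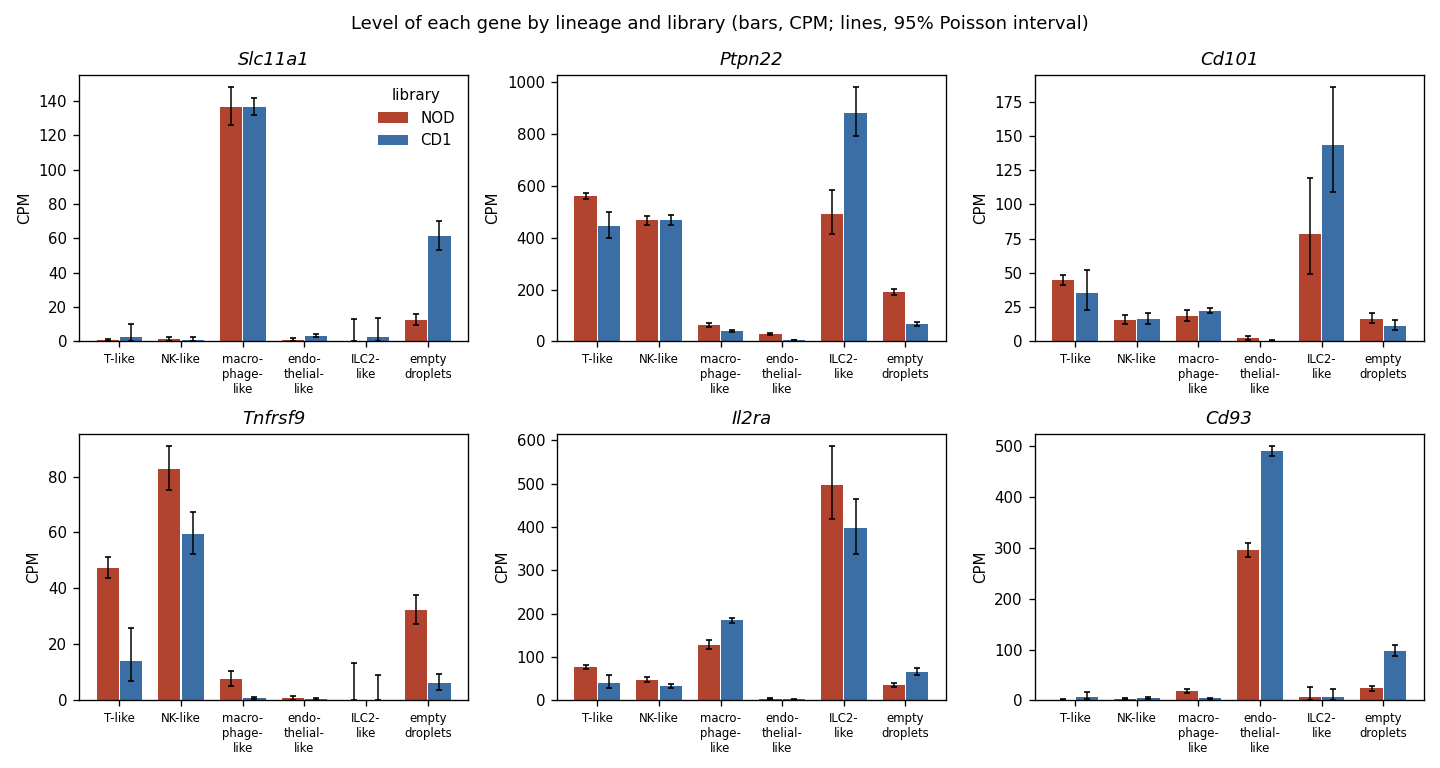
CPM of each gene (vertical axes, 1 panel per gene, each with its own scale) in T-like, NK-like, macrophage-like, endothelial-like and ILC2-like barcodes and in empty droplets of the NOD (red) and CD1 (blue) libraries, with 95% Poisson intervals as lines. *Slc11a1* at 136 and 137 CPM in macrophage-like barcodes is equally high in both libraries, whereas *Cd93* in endothelial-like barcodes is 296 CPM in NOD and 490.3 CPM in CD1.

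Across all barcodes 3 of the 6 genes were higher and 3 lower in the NOD library. *Tnfrsf9* was at 35.2 CPM in NOD and 6.64 CPM in CD1, a log2 ratio of 2.41 (2.23 to 2.58), and *Ptpn22* at 327 and 83.7 CPM, a log2 ratio of 1.96 (1.91 to 2.01). *Cd93* was at 47.8 and 205 CPM (-2.10, -2.17 to -2.03) and *Slc11a1* at 15.7 and 60.2 CPM (-1.94, -2.06 to -1.82). A log2 ratio of at least 1 in size was thus seen for 2 members higher and 2 lower in NOD, beside 15.9% of the 19827 genes with at least 20 UMIs that were this much higher and 14.6% this much lower (30.5% in all). *Cd101* (26.0 and 14.7 CPM, 0.82) and *Il2ra* (56.1 and 89.0 CPM, -0.67) differed less. These sums move with the lineages in each library. T-like barcodes made up 28.4% of the NOD and 1.23% of the CD1 barcodes, and macrophage-like barcodes 11.1% and 42.1%. When each lineage was held at its CD1 level and only the lineage shares were set to those of NOD, the log2 ratio was 1.50 for *Ptpn22*, 1.09 for *Tnfrsf9*, 0.54 for *Cd101*, -0.72 for *Il2ra*, -1.10 for *Cd93* and -1.42 for *Slc11a1*, in the same direction as observed for each gene. When instead the shares were held at those of CD1 and only the levels within lineages were set to those of NOD, it was 1.17 for *Tnfrsf9*, 0.46 for *Ptpn22*, -0.07 for *Cd101*, -0.40 for *Il2ra*, -0.70 for *Cd93* and -0.08 for *Slc11a1*. For *Tnfrsf9* this was the larger of the pair, and for *Cd101* it had the opposite sign to the observed ratio. The *Tnfrsf9* value includes macrophage-like barcodes (7.46 and 0.642 CPM) and barcodes given no single lineage (mixed, 59.7 and 11.8 CPM). Of 33 NOD and 13 CD1 macrophage-like UMIs, 6 and 4 were left without the barcodes highest in doublet (Scrublet) score. The part of lymphocyte RNA in these levels was not tested. Over whole libraries, fewer cells of a type and less RNA per cell cannot be told apart, so the rest of the comparison was made within lineages.

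**Figure D2:**
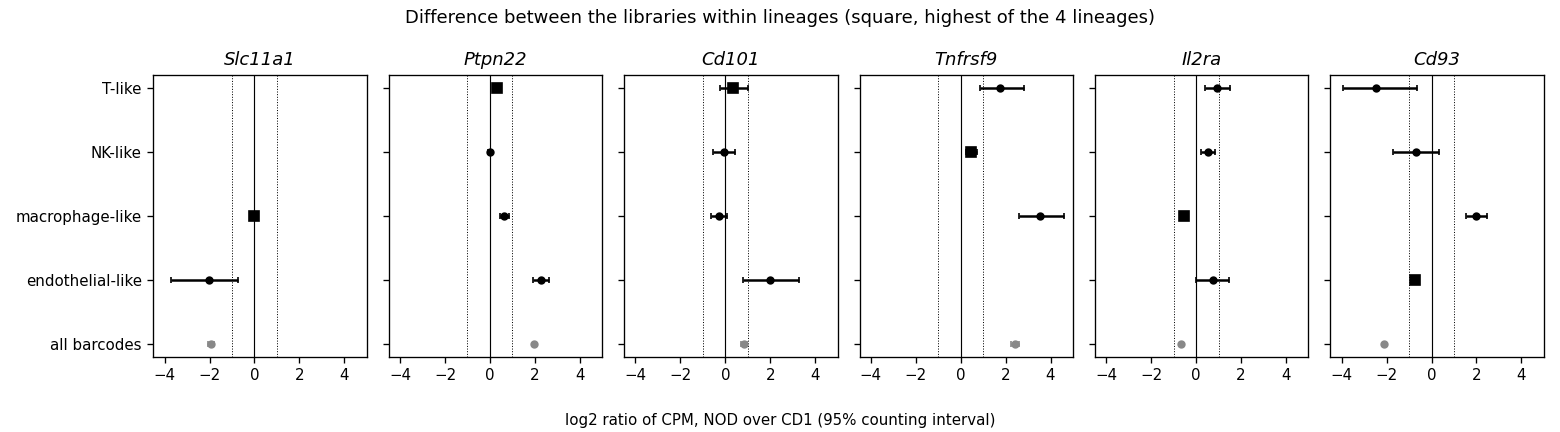
Log2 ratio of CPM, NOD over CD1 (horizontal axes), for each gene in the 4 lineages (black) and over all barcodes (grey), with 95% counting intervals as lines and dotted lines at a log2 ratio of 1 in size, where both libraries together hold at least 20 UMIs. The square marks the lineage of the 4 in which the gene is highest by the mean of both libraries, and the 6 squares lie between -0.73 for *Cd93* and 0.48 for *Tnfrsf9*.

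In the lineage where each gene was highest, no member reached a log2 ratio of 1 in size. *Slc11a1* did not differ beyond counting error in macrophage-like barcodes. *Cd93* in endothelial-like and *Il2ra* in macrophage-like barcodes were lower in NOD, *Tnfrsf9* in NK-like and *Ptpn22* in T-like barcodes were higher, and the interval of *Cd101* in T-like barcodes held 0. The members past the fold were found in other lineages than these. In T-like barcodes they were *Tnfrsf9* (higher) and *Cd93* (lower, 17 and 5 UMIs) among 5 members with at least 20 UMIs, beside 9.14% of 12940 genes this much higher and 7.3% this much lower (16.4% in all). The endothelial marker *Flt1* was also lower in NOD T-like barcodes (5.21 and 22.5 CPM). In macrophage-like barcodes the members past the fold were *Tnfrsf9* and *Cd93*, both higher in NOD, among 6 members, beside 8.5% of 14771 genes this much higher and 5.86% lower (14.4% in all). In endothelial-like barcodes they were *Ptpn22* and *Cd101* (higher) and *Slc11a1* (lower) among 5 members, beside 8.51% of 14489 genes higher and 3.96% lower (12.5% in all). In NK-like barcodes 0 of 5 members were past the fold, beside 6.81% of 12197 genes higher and 4.07% lower (10.9% in all). The median of all these genes lay between 0.05 and 0.08 in the 4 lineages.

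**Figure D3:**
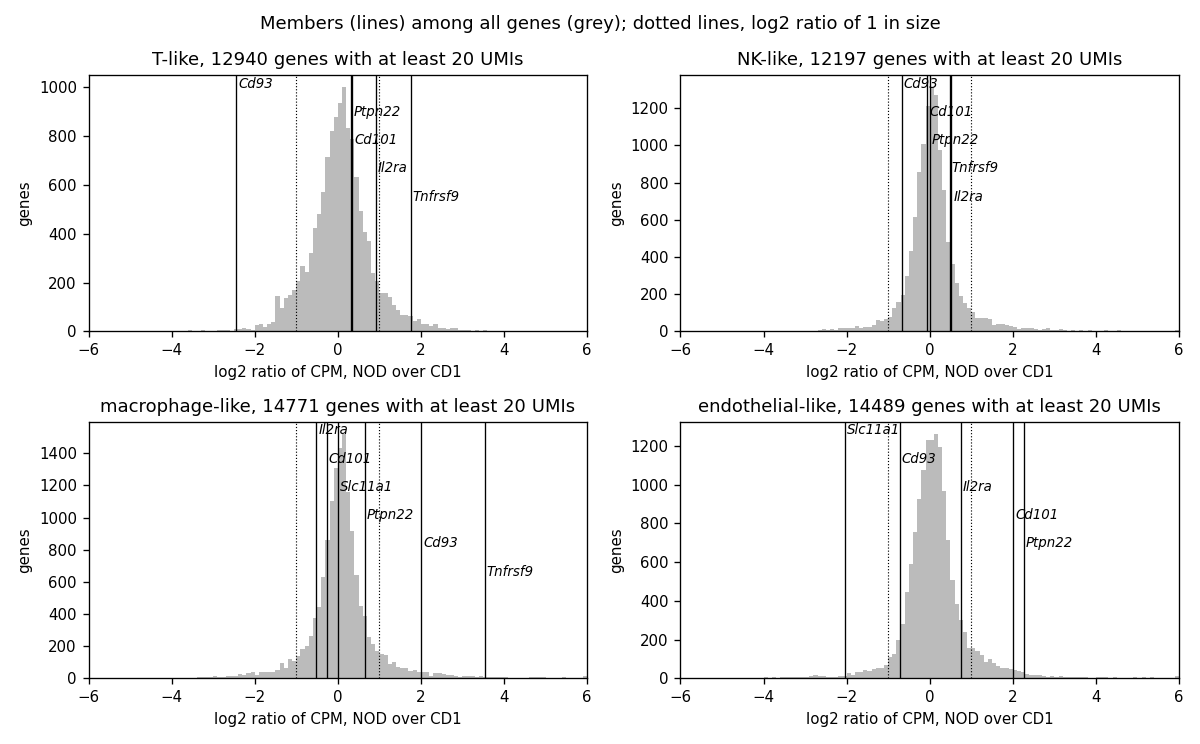
Number of genes (vertical axes) by log2 ratio of CPM, NOD over CD1 (horizontal axes), among genes with at least 20 UMIs in each of 4 lineages, with members as black lines, dotted lines at a log2 ratio of 1 in size and values beyond 6 in size drawn at 6 (a library at 0 was set to 3 UMIs). In NK-like barcodes all 5 members lie inside the dotted lines, and *Tnfrsf9* in macrophage-like barcodes lies farthest out, at 3.54.

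Of the receptors, *Il2ra* was read in T-like and macrophage-like barcodes alike. In T-like barcodes it stood at 76.7 CPM in NOD (1015 UMIs) and 40.7 CPM in CD1 (29 UMIs), with a log2 ratio of 0.91 (0.38 to 1.50). In NK-like barcodes it was at 46.9 and 32.8 CPM (0.52, 0.21 to 0.83). Both intervals lie above 0. Here and below, barcodes with no UMI of other lineages lack UMIs of the other lists among T, NK, B, macrophage and endothelial. T and NK lists were not set against each other, and UMIs of the remaining lists could stay. Among such barcodes (1399 NOD and 50 CD1 T-like) both intervals held 0. The log2 ratio was 0.54 (-0.08 to 1.24) in T-like and 0.09 (-0.30 to 0.48) in NK-like barcodes. Without the highest Scrublet scores both intervals lay above 0, at 0.86 (0.32 to 1.44) in T-like and 0.54 (0.23 to 0.87) in NK-like barcodes. In macrophage-like barcodes the order was the other way, with 129 CPM in NOD (118 to 140, 570 UMIs) and 185 CPM in CD1 (179 to 191, 3739 UMIs), a log2 ratio of -0.52 (-0.65 to -0.39). *Il2ra* UMIs were found in 18.0% of NOD (130 of 724) and 33.7% of CD1 (994 of 2952) macrophage-like barcodes, with median depths of 3598 and 7065.5 UMIs. After thinning of every barcode to 500 UMIs these shares were 4.70% (3.27 to 6.50) and 6.30% (5.45 to 7.24), so the shares lay closer at equal depth and their intervals overlap. In endothelial-like barcodes, which should lack the receptor, 1.13% and 1.18% of barcodes had a UMI at median depths of 5183 and 6209, and empty droplets were at 35.1 and 66.2 CPM.

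The macrophage-like *Il2ra* UMIs were concentrated in few barcodes. In NOD the tenth of barcodes with the most held 87.0% of them and in CD1 65.0%, and the highest count in 1 barcode was 42 UMIs in NOD and 23 in CD1. Dividing macrophage-like barcodes, those with at least 2 UMIs of *Mki67* and *Top2a*, stood at 284 CPM in CD1 (134 barcodes, 259.5 to 311) and 144 CPM in NOD (26 barcodes, 106 to 192). The CD1 value lies above that of all CD1 macrophage-like barcodes, and the NOD interval includes the value of all NOD ones. Macrophage-like barcodes with an *Il2ra* UMI also held more *Mmp12*, a macrophage elastase, than those without in both libraries, at 137 against 49.4 CPM in NOD and 314 against 171 CPM in CD1. *Il12b*, the p40 subunit of interleukin-12 and interleukin-23, was at 54.0 against 5.53 CPM in NOD and 21.1 against 4.73 CPM in CD1. Both genes were chosen after their values were seen. T cell marker UMIs lay in 19.2% of the NOD *Il2ra* barcodes against 13.3% of those without, and in 3.12% against 2.15% in CD1. When only macrophage-like barcodes with 0 UMIs of the T, NK, B and endothelial lists were kept, *Il2ra* was at 153 CPM in NOD (421 barcodes) and 173 CPM in CD1 (1930.0 barcodes), and the log2 ratio was -0.18 (-0.35 to -0.01). Without the highest Scrublet scores the log2 ratio was -0.48 (-0.61 to -0.34).

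*Il2ra* was higher still in 2 small populations. Barcodes named for group 2 innate lymphoid cells (ILC2-like, with *Il1rl1* UMIs in all 38 NOD and 49 CD1 barcodes and *Il17rb* in 34 and 46) stood at 497 CPM in NOD (418 to 587) and 398 CPM in CD1 (339 to 464), and the intervals overlap. Of these barcodes 84.2% and 85.7% had an *Il2ra* UMI. The list that named these barcodes also holds *Il5* (in 7 NOD and 13 CD1 barcodes), *Calca* (4 and 10) and *Il13* (0 and 3). Its genes are no separate check of the name. *Stab2* and *Thsd4* were the leading genes in both libraries. In the NOD library, the 205 T-like barcodes with a UMI of *Foxp3*, the transcription factor of regulatory T cells, stood at 308 CPM (282 to 337, 505 UMIs). They made up 11.1% of the NOD T-like barcodes and held 49.8% of their *Il2ra* UMIs. The CD1 library had 3 such barcodes with 6 *Il2ra* UMIs in all, too few to compare.

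*Tnfrsf9* followed *Il2ra* in the T-like barcodes. In the NOD *Foxp3* barcodes it stood at 201 CPM (180 to 224, 329 UMIs), against 34.1 CPM (29.5 to 39.2) in the 774 barcodes with *Cd4* and no *Foxp3* UMI and 13.2 CPM (9.81 to 17.3) in the 514 with *Cd8a* or *Cd8b1* UMIs. The log2 ratio of *Foxp3* over *Cd4* barcodes was 2.56 (2.30 to 2.82) for *Tnfrsf9* and 2.67 (2.45 to 2.88) for *Il2ra*, which stood at 48.6 CPM in the *Cd4* and 13.7 CPM in the *Cd8* barcodes. These intervals do not include 0, and the median depths of the *Foxp3* and *Cd4* barcodes were 6403 and 6695.5 UMIs. A UMI of both genes was found in 22.0% of the *Foxp3* barcodes (45 of 205) and in 2.19% of the other T-like barcodes (36 of 1641). The *Foxp3* barcodes held 52.6% of the *Tnfrsf9* UMIs of the NOD T-like barcodes, which is the larger part of a level of 47.2 CPM. All 10 *Tnfrsf9* UMIs of the CD1 T-like barcodes (14.0 CPM) lay in 1 barcode, which also held a *Foxp3* UMI. The log2 ratio of 1.75 (0.86 to 2.82) in T-like barcodes therefore rests on 1 CD1 barcode, and on a subset with 205 barcodes in 1 library and 3 in the other. It was 1.00 (0.11 to 2.07) among barcodes with no UMI of other lineages.

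**Figure D4:**
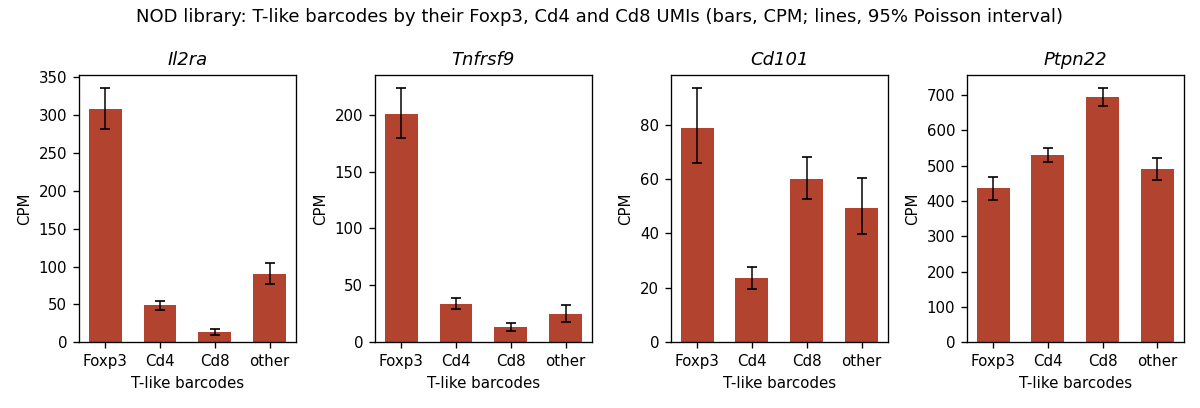
CPM (vertical axes) of 4 genes in NOD T-like barcodes with a *Foxp3* UMI (205 barcodes), with *Cd4* (774), with *Cd8a* or *Cd8b1* (514) or with none of these (353), with 95% Poisson intervals as lines. *Il2ra* (308 CPM) and *Tnfrsf9* (201 CPM) are highest in the *Foxp3* barcodes, *Cd101* is lowest in the *Cd4* barcodes (23.5 CPM) and *Ptpn22* is highest in the *Cd8* barcodes (695 CPM).

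Because *Il2ra* and *Tnfrsf9* are the members that stood out together in the *Foxp3* barcodes, the 250 bases before a transcription start of each are shown, from RefSeq on GRCm38.p6 and on the plus strand. Capitals mark letters of 5 motifs searched on both strands: NF-kB, TTCNNNGAA (STAT), TGANTCA (AP-1), TGGAAA (NFAT core) and GAGGAA (ETS core). The *Il2ra* window is chr2:11642542-11642791 and the *Tnfrsf9* window chr4:150919905-150920154.
Il2ra: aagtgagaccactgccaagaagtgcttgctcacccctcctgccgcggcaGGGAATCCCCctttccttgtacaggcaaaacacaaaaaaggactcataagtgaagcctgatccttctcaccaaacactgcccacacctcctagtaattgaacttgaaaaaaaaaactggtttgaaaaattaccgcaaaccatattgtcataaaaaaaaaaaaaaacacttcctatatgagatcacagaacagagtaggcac
Tnfrsf9: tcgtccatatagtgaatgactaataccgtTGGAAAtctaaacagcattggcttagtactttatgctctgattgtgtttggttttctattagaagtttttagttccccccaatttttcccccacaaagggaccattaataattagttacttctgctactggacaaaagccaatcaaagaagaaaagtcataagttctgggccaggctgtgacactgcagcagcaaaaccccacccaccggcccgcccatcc

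The *Il2ra* window holds the NF-kB letters as GGGAATCCCC, which starts 201 bases before the transcription start, and such letters occur in 2.05% of the 32851 windows of this length. The *Tnfrsf9* window holds the NFAT core 221 bases before the start, as do 18.6% of all windows. RefSeq gives a further *Tnfrsf9* start, and the 250 bases before it hold the NF-kB letters as GGGGATTTCC, the STAT letters as TTCCAAGAA (in 7.02% of all windows) and the AP-1 letters as TGAGTCA (in 6.75%). That window overlaps a 5' untranslated region and is therefore not shown. The NF-kB letters were added after the windows were seen, so the 2.05% cannot be read as the rarity of a match here. A match is a description of letters and not a site. Of the 6 members, 5 have a window in this table, and *Cd93* was not matched. The submitters' notes name GRCm39 for their files, so these positions belong to the older build.

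In NK-like barcodes, where it was highest of the 4 lineages, *Tnfrsf9* stood at 82.8 CPM in NOD (75.3 to 90.8, 448 UMIs) and 59.5 CPM in CD1 (52.4 to 67.3, 252 UMIs), a log2 ratio of 0.48 (0.25 to 0.71). The intervals of the levels do not overlap. The share of NK-like barcodes with a UMI went the other way, with 32.4% in NOD (186 of 574) and 36.6% in CD1 (134 of 366) at median depths of 8289 and 9959 UMIs, and no order is read from these shares. One NOD barcode held 40 *Tnfrsf9* UMIs, whereas the CD1 maximum was 7, and with each barcode weighted equally the log2 ratio was 0.21. NK-like barcodes also differed in markers between the libraries. Of the NK list, *Klre1* (597 and 410 CPM) was higher in NOD and the other genes lower, *Klrb1c* most (148 and 534 CPM). The T marker *Cd3g* stood at 321 and 162 CPM. The part of these differences in the *Tnfrsf9* ratio was not tested. In dividing NK-like barcodes *Tnfrsf9* was at 48.6 CPM in NOD (22 barcodes) and 56.2 CPM in CD1 (20 barcodes), with an interval of the log2 ratio from -1.22 to 0.80. Endothelial-like barcodes had a UMI in 0.375% and 0.208% of cases, and empty droplets stood at 32.3 and 6.23 CPM. In macrophage-like barcodes 33 NOD UMIs in 13 barcodes stood against 13 CD1 UMIs in 7 barcodes, a log2 ratio of 3.54 (2.57 to 4.59), and T marker UMIs lay in 6 of these 13 NOD and 3 of the 7 CD1 barcodes. Among macrophage-like barcodes with no UMI of other lineages, 4 NOD and 2 CD1 *Tnfrsf9* UMIs were left.

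*Ptpn22* was broadly present in lymphocytes of both strains. In T-like barcodes it stood at 561 CPM in NOD (548 to 574, 7421 UMIs) and 447 CPM in CD1 (399 to 498, 318 UMIs), a log2 ratio of 0.33 (0.17 to 0.49). A UMI was found in 86.2% of NOD and 81.4% of CD1 T-like barcodes, and in 24.1% and 22.1% after thinning. In NK-like barcodes the levels were 466 CPM (448 to 485) and 468 CPM (448 to 489), and the log2 ratio had an interval from -0.09 to 0.08. The T-like difference was thus larger than counting error and the NK-like one was not. Within T-like barcodes the *Cd8* barcodes were at 695 CPM in NOD and 408 CPM in CD1 (23 barcodes), a log2 ratio of 0.77 (0.47 to 1.08). The *Cd4* barcodes were at 530.3 and 569.5 CPM (30 CD1 barcodes), and the interval of their log2 ratio, -0.35 to 0.16, held 0. Within NOD, *Ptpn22* was lower in *Foxp3* barcodes (436 CPM, 404 to 469) than in *Cd4* (512 to 549) or *Cd8* barcodes (669 to 721), an order opposite to that of *Il2ra* and *Tnfrsf9*.

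In ILC2-like barcodes *Ptpn22* was the reverse of the T-like pattern, with 493 CPM in NOD (414 to 583, 138 UMIs) and 882 CPM in CD1 (793 to 979, 357 UMIs), a log2 ratio of -0.84 (-1.13 to -0.55). B-like barcodes, of which CD1 had 8, were at 118 CPM in NOD with 27.1% of 686 barcodes holding a UMI. In lineages where the phosphatase was low, its UMIs went with markers of lymphocytes. In macrophage-like barcodes it was at 63.7 CPM in NOD and 40.7 CPM in CD1, a log2 ratio of 0.65 (0.45 to 0.84). T marker UMIs were in 34.0% of the 97 NOD macrophage-like barcodes with a *Ptpn22* UMI and in 11.3% of those without, against 4.68% and 2.03% in CD1. Among macrophage-like barcodes with no UMI of other lineages the levels were 25.0 CPM in NOD (53 UMIs) and 34.9 CPM in CD1 (413 UMIs), and the log2 ratio was -0.48 (-0.92 to -0.06), the opposite direction. In endothelial-like barcodes it was at 27.0 and 5.64 CPM (2.26, 1.91 to 2.62), with T marker UMIs in 60.0% of the 50 NOD barcodes that had a *Ptpn22* UMI. Without UMIs of other lineages 4.96 and 2.51 CPM were left (19 and 36 UMIs), a log2 ratio of 0.99 (0.10 to 1.83). Empty droplets stood at 190.2 CPM in NOD and 67.1 CPM in CD1.

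*Cd101* was a low transcript. In T-like barcodes it was at 44.8 CPM in NOD (41.3 to 48.6, 593 UMIs) and 35.1 CPM in CD1 (22.7 to 51.8, 25 UMIs), and the log2 ratio of 0.35 had an interval from -0.22 to 0.99. Ratios of opposite sign were found in its subsets, a difference that was not tested, with 1.77 (0.40 to 3.66) in *Cd8* barcodes, where CD1 had 4 UMIs, and -0.80 (-1.52 to -0.01) in barcodes with none of *Foxp3*, *Cd4* and *Cd8* UMIs, where CD1 had 19. In NK-like barcodes it was at 15.9 and 16.5 CPM, and in macrophage-like barcodes at 18.8 and 22.6 CPM. The intervals of both ratios held 0. Without UMIs of other lineages the macrophage-like log2 ratio was -0.56 (-1.12 to -0.04), and without the highest Scrublet scores it was -0.45 (-0.85 to -0.06), so both of these intervals lie below 0. The neutrophil and ILC2 lists were not part of the restriction on other lineages. Within the NOD T-like barcodes the levels were 78.8 CPM in *Foxp3* (65.8 to 93.6), 60.0 CPM in *Cd8* (52.5 to 68.2) and 23.5 CPM in *Cd4* barcodes (19.7 to 27.8). The *Foxp3* and *Cd8* intervals overlap, although the interval of their log2 ratio (0.07 to 0.71) lies above 0, and both lie above the *Cd4* level. In ILC2-like barcodes *Cd101* stood at 78.6 CPM in NOD (49.3 to 119) and 143 CPM in CD1 (109 to 185), which gave a log2 ratio of -0.87 (-1.65 to -0.14), so this gene and *Ptpn22* were both lower in NOD there. Few barcodes bore neutrophil markers, 5 in NOD and 4 in CD1, yet 4 of each had a *Cd101* UMI, with 8 and 24 UMIs in all. In endothelial-like barcodes 14 NOD and 11 CD1 UMIs gave a log2 ratio of 2.01 (0.77 to 3.30), and 8 of the 11 NOD barcodes with a UMI also had T markers. With no UMI of other lineages, 1 NOD and 2 CD1 UMIs were left.

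*Slc11a1* was read mainly in a single lineage. Macrophage-like barcodes held 88.7% of its UMIs in NOD and 93.2% in CD1. Their level was 136 CPM in NOD (126 to 148, 604 UMIs) and 137 CPM in CD1 (132 to 142, 2770 UMIs), and the log2 ratio lay between -0.13 and 0.13. A difference of more than 1.10-fold in favor of CD1 is outside this interval. UMIs were in 37.8% of NOD and 47.1% of CD1 macrophage-like barcodes, but in 6.63% (4.93 to 8.69) and 5.62% (4.82 to 6.52) after thinning, with overlapping intervals. T-like barcodes, which should lack the transporter, had UMIs in 0.596% (NOD) and 2.33% (CD1) of cases at median depths of 6533.5 and 8079. Barcodes with more monocyte than C1q UMIs, 13 in each library, stood at 69.9 CPM in NOD (38.2 to 117) and 169 CPM in CD1 (108 to 251), which gave a log2 ratio of -1.27 (-2.33 to -0.26). In endothelial-like barcodes 5 NOD and 65 CD1 UMIs gave a log2 ratio of -2.04 (-3.71 to -0.74). Empty droplets moved the same way (12.7 and 61.1 CPM), and macrophage marker UMIs were in 8.82% of NOD and 20.8% of CD1 endothelial-like barcodes.

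*Cd93* was the member with the clearest difference in its own lineage. In endothelial-like barcodes it stood at 296 CPM in NOD (283 to 310, 1840 UMIs) and 490.3 CPM in CD1 (481 to 500.2, 9653 UMIs). It was 1.66-fold higher in CD1 (1.57 to 1.74), or a log2 ratio of -0.73 (-0.80 to -0.66). Of the 14489 genes with at least 20 UMIs in these barcodes, 6.60% had a lower log2 ratio. UMIs were in 63.5% of NOD and 77.6% of CD1 barcodes, and in 12.9% (10.99 to 15.1) and 19.1% (17.7 to 20.6) after thinning, so the shares stayed apart at equal depth. Barcodes with 5 or more *Cd93* UMIs made up 9.29% in NOD and 26.7% in CD1. The background was low, with UMIs in 0.867% and 4.65% of T-like barcodes, although empty droplets stood at 23.3 and 97.6 CPM.

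**Figure D5:**
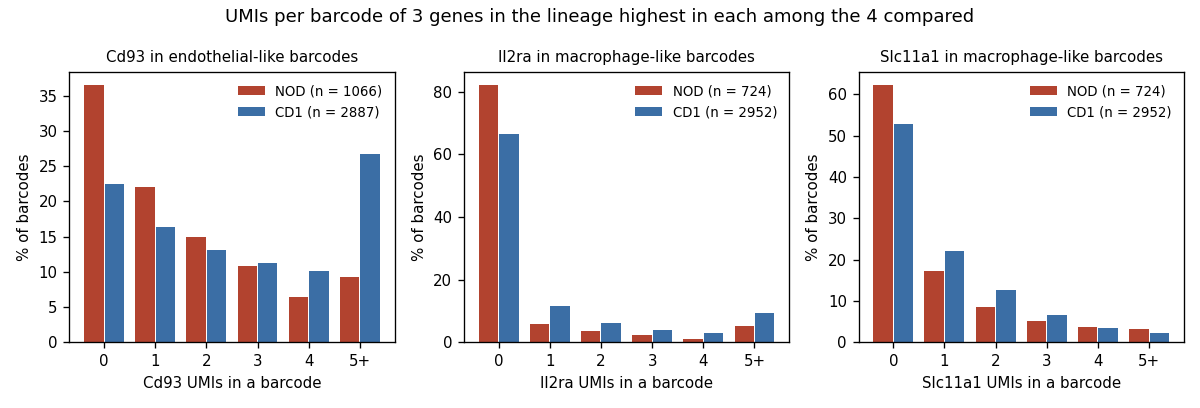
Percent of barcodes (vertical axes) by the number of UMIs of a gene in a barcode (horizontal axes) in the NOD (red) and CD1 (blue) libraries, for *Cd93* in endothelial-like and *Il2ra* and *Slc11a1* in macrophage-like barcodes. Barcodes with 5 or more *Cd93* UMIs are 9.29% in NOD and 26.7% in CD1, whereas for *Slc11a1* they are 3.18% and 2.17%.

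The difference in *Cd93* was seen in the capillary class, to which most endothelial-like barcodes belonged. Capillary barcodes (801 NOD and 2327 CD1) were at 295 and 504 CPM, a log2 ratio of -0.77 (-0.85 to -0.69). Arterial barcodes (115 and 285) were at 347 and 428 CPM (-0.30, -0.53 to -0.08). Venous barcodes (30 and 26) were at 216 and 329 CPM, and the interval of their ratio, -1.27 to 0.06, held 0. All 3 classes were lower in NOD. In macrophage-like barcodes the order was reversed, with 17.4 CPM in NOD (13.7 to 21.7, 77 UMIs) and 4.34 CPM in CD1 (3.48 to 5.35, 88 UMIs), a log2 ratio of 2.00 (1.54 to 2.46). Endothelial marker UMIs lay in 60.8% of the 51 CD1 macrophage-like barcodes with a *Cd93* UMI and in 30.8% of the 39 NOD ones. With no UMI of other lineages, 31 NOD and 23 CD1 UMIs were left and the log2 ratio was 2.91 (2.09 to 3.76). The NOD barcodes with more monocyte than C1q UMIs, 13 in number, held 29 of the 77 UMIs at 145 CPM (97.0 to 208), and their CD1 counterparts 4 UMIs at 28.1 CPM.

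The genes that work with each member were then read in its lineage, from lists of partners. Of the endothelial relatives and ligands of *Cd93*, 0 of 6 were past a log2 ratio of 1 in size in endothelial-like barcodes, and their median was -0.00 (0.08 over all genes tested). *Mmrn2*, an extracellular matrix ligand of *Cd93*, was at 579 CPM in NOD and 513 CPM in CD1 (0.18, 0.12 to 0.23), *Clec14a* at 695 and 640 CPM (0.12, 0.07 to 0.17) and *Thbd*, the thrombomodulin gene that neighbors *Cd93*, at 497 and 530.3 CPM (-0.09, -0.15 to -0.03). Both *Mmrn2* and *Thbd* were chosen after their values were seen. *Igfbp7*, another ligand, was at 4704 and 5875 CPM (-0.32, -0.34 to -0.30).

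Of the 8 partners and substrates of *Ptpn22* in T-like barcodes 0 were past the fold, with a median of 0.39 (0.06 over all genes tested). *Lck* was at 522 and 389 CPM (0.42, 0.25 to 0.60) and *Cd247*, the zeta chain of the T cell receptor complex, at 651 and 484 CPM (0.43, 0.27 to 0.58), close to the log2 ratio of *Ptpn22* itself. Of the 12 genes of interleukin-2 receptor signaling, 2 were higher and 1 lower past the fold in T-like barcodes, beside 9.14% and 7.3% of all genes, and the median was 0.29. *Cish*, a feedback inhibitor that STAT5 induces, was at 82.3 CPM in NOD and 185 CPM in CD1 (-1.17, -1.43 to -0.90), whereas *Foxp3* was at 36.1 and 16.8 CPM (1.10, 0.28 to 2.06) and *Jak3* at 16.2 and 7.02 CPM, with an interval that held 0. In NK-like barcodes *Cish* was also lower in NOD, at 56.7 and 98.9 CPM (-0.80, -1.02 to -0.59), and 1 of 11 genes with enough UMIs was past the fold, *Il2*, lower at 0.924 and 5.19 CPM, beside 4.07% of all genes. In macrophage-like barcodes 4 of 10 were higher past the fold, beside 8.5% of all genes tested there. These were *Il2rb* (34.8 and 4.89 CPM), *Il2rg* (49.7 and 22.2 CPM), *Socs1* (12.4 and 4.10 CPM) and *Cish* (6.10 and 1.18 CPM). *Il2rb* is also a gene of T and NK cells, whose markers were higher in the NOD macrophage-like barcodes, and their part in these values was not tested.

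Of the 7 partners of 4-1BB in NK-like barcodes, 2 were higher past the fold, beside 6.81% of all genes tested there. These were its ligand gene *Tnfsf9* (25 and 9 UMIs), with an interval that held 0 (-0.03 to 2.40), and *Tnfrsf4*, which encodes OX40 (9.98 and 1.65 CPM, 2.59, 1.45 to 3.98). The adaptors *Traf1* (118 and 112 CPM) and *Birc3* (152 and 146 CPM) had intervals that held 0. In T-like barcodes *Tnfrsf4* was at 133 and 50.5 CPM (1.39, 0.92 to 1.91) and past the fold. *Tnfsf9* had 57 UMIs in NOD and 0 in CD1 there, at least 1.02-fold higher with 3 UMIs over the CD1 barcodes as the floor, and was not counted as past the fold. Of 8 genes of phagosome metal handling, 6 had enough UMIs in macrophage-like barcodes and 0 were past the fold, with a median of -0.04. The ferritin genes *Fth1* (5602 and 6852 CPM, -0.29) and *Ftl1* (2352 and 2742 CPM, -0.22) were slightly lower in NOD. Of the 3 relatives of *Cd101*, 2 had enough UMIs in T-like barcodes, *Ptgfrn* and *Igsf8*, and both intervals held 0.

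Among 7 other candidates for NOD loci that the files hold, 3 were higher and 1 lower past the fold in T-like barcodes, beside 9.14% and 7.3% of all genes tested there. *Ctla4*, an inhibitory receptor that regulatory T cells carry, was at 175 CPM in NOD and 57.6 CPM in CD1 (1.60, 1.16 to 2.08). *Il21*, a cytokine of helper T cells, had 213 UMIs in NOD and 0 in CD1 and was at least 3.82-fold higher, with 3 UMIs over the CD1 barcodes as the floor. *H2-Ab1*, a class II gene, was at 74.0 and 29.5 CPM (1.33) and *Fcgr1*, which had 22 and 3 UMIs, was lower (-1.34, -3.08 to 1.04). Both were far higher in macrophage-like barcodes, as given below. In T-like barcodes the B marker *Cd79b* was at 11.6 and 1.40 CPM and the macrophage marker *C1qb* at 3.78 and 11.2 CPM. The macrophage marker *Csf1r* went the other way, at 0.755 and 0 CPM. The part of RNA of other lineages in the T-like *H2-Ab1* and *Fcgr1* values was not tested. In NK-like barcodes 1 of 6 was higher past the fold, *Ctla4* (51 and 15 UMIs), beside 6.81% of all genes. In macrophage-like and endothelial-like barcodes 2 of 6 were, *Ctla4* and *Icos* in each, with at most 44 UMIs of either gene in a library, beside 8.5% and 8.51% of all genes. *Fcgr1*, the high-affinity IgG receptor, was at 627 CPM in NOD and 409 CPM in CD1 macrophage-like barcodes (0.62, 0.56 to 0.68), and *H2-Ab1* at 5989 and 8112 CPM (-0.44). *Fcgr1* in these barcodes was chosen after its values were seen, as was *Cish* in NK-like barcodes.

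Up to 3 genes on each side of a member in gene order were read in the lineage of that member. Of 26 such genes with at least 20 UMIs, 3 were higher and 1 lower past the fold, a share near that of all genes in these lineages (16.4% in T-like, 10.9% in NK-like, 14.4% in macrophage-like and 12.5% in endothelial-like barcodes). Next to *Ptpn22*, *Bcl2l15* had 240 UMIs in NOD T-like barcodes and 0 in CD1 and was at least 4.30-fold higher, with the same floor. On its other side *Rsbn1* was at a log2 ratio of 0.40 (0.02 to 0.81). Near *Il2ra*, *Prkcq*, a protein kinase of T cells, had 184 and 102 UMIs in macrophage-like barcodes (3.05, 2.69 to 3.41), where T markers were also higher in NOD. Near *Cd93*, *Napb* had 109 and 161 UMIs in endothelial-like barcodes (1.10, 0.74 to 1.46). Next to *Slc11a1*, *Catip* (26 and 261 UMIs) was at -1.13 (-1.77 to -0.55) in macrophage-like barcodes. Whether reads from NOD alleles map to these genes as well as those of CD1 was not tested. These neighbors were named after their values were seen.

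The genes whose pattern over lineages and libraries was most like that of each member were searched among 15418 genes with at least 100 UMIs. The measure was the Pearson correlation of log2(CPM + 5) over 8 points, the 4 lineages in each library. The points share libraries and depth, and the values are a description. For *Slc11a1* they were *Klra2*, *C3ar1* and *Vis1*, for *Ptpn22* *Septin6*, *Traf1* and *Cyfip2* and for *Cd93* *Msantd3*, *Sort1* and *Cda*. For *Il2ra* they were *Tnfaip8l2*, *Frrs1* and *Wdr44*, for *Cd101* *Erp27*, *Crlf3* and *Gpcpd1* and for *Tnfrsf9* *Efl1*, *Srsf3* and *Gm39932*. The lowest coefficient among these genes was 0.987. A high coefficient does not mean a similar level or a similar size of differences. *Srsf3* ran from 197 to 303 CPM over these points, whereas *Tnfrsf9* ran from 0.457 to 82.8 CPM. *Frrs1* was lower in NOD than in CD1 macrophage-like barcodes (41.1 and 63.6 CPM), as *Il2ra* was, and *C3ar1*, the receptor of complement C3a, stood at 183 and 198 CPM there, near *Slc11a1* in its small difference between the libraries.

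Members were also found together in the same barcode. In NK-like barcodes a *Tnfrsf9* UMI lay in 49 of the 98 NOD barcodes with *Il2ra* and in 26 of the 57 CD1 ones. Of the NK-like barcodes with *Tnfrsf9*, 26.3% in NOD and 19.4% in CD1 had *Il2ra*, against 12.6% and 13.4% of those without. In macrophage-like barcodes *Il2ra* lay in 29.2% of the NOD barcodes with *Slc11a1* and in 11.1% of those without, and in 44.1% and 24.3% in CD1. Deeper barcodes hold more of every gene, and the part of depth in these shares was not tested.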

How the data were processed

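Per the file headers, the deposited matrices hold raw UMI counts per gene and barcode, unfiltered, which the authors made with Cell Ranger 8.0.0 on build GRCm39 (Seurat 5.0.1 and R 4.3.1 are also named in the submitters' processing notes). Counting against a reference genome of another strain can lower the counts of genes with NOD or CD1 variants. The 2 libraries hold 52790319 (NOD) and 56483149 (CD1) UMIs over 1298073 and 1331542 barcodes, and 43439635 and 49420810 UMIs lie in the barcodes kept. The labels and the methods name different digestion enzymes and pool sizes.

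Barcodes with at least 500 UMIs and 300 genes were kept, and no source used here states the study's own filter on cells. A barcode took the name of the list, of 14, with at least 3 UMIs over at least 2 genes and at least 2 times the UMIs of the next, and was otherwise mixed or unassigned. The main values keep doublets, and an alternative removed the 338 and 394 barcodes with the highest Scrublet scores (scanpy 1.11.5). The alternatives also changed barcode and marker minimums, mitochondrial limit, scaling, weighting, free RNA and depth. The restriction to barcodes without UMIs of other lineages used the T, NK, B, macrophage and endothelial lists alone. It was chosen after seeing the data. Levels are CPM with exact Poisson intervals, shares have exact Clopper-Pearson intervals and ratios have exact conditional binomial intervals, all at 95% and for counting error only. On simulated data the ratio intervals covered the simulated ratio in 96.8% of 12942 genes in T-like and 95.8% of 12214 in NK-like barcodes. In macrophage-like barcodes this was 95.7% of 14770 and in endothelial-like barcodes 96.0% of 14456. The simulated data were Poisson draws of lineage sums, which is what the intervals assume. UMIs that gather in few barcodes were not simulated, so coverage for such genes was not tested. A fold against 0 used a floor of 3 UMIs over the lineage.

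The named genes are the 6 members, partner genes past a log2 ratio of 1 or among those with the most UMIs of a list, and the 3 genes most like each member in pattern. The members and lists were chosen with earlier results of these data known. Python 3.11.15, numpy 2.4.6, scipy 1.17.1 and pandas 2.3.3 were used.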

Additional observations from a re-analysis of the deposited data

Results flagged for a closer look

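*Il2ra* had ratios of opposite direction in different lineages. Its log2 ratio was 0.91 in T-like and -0.52 in macrophage-like barcodes, 1.43 apart, and 0.52 in NK-like barcodes, 1.04 above the macrophage-like value. The ratios lay closer without UMIs of other lineages. They were then 0.54 (-0.08 to 1.24) in T-like, 0.09 (-0.30 to 0.48) in NK-like and -0.18 (-0.35 to -0.01) in macrophage-like barcodes. Without the highest Scrublet scores the ratios stayed near the main values, and no interval held 0. These were 0.86 (0.32 to 1.44) in T-like, 0.54 (0.23 to 0.87) in NK-like and -0.48 (-0.61 to -0.34) in macrophage-like barcodes. *Cd93* was at 2.00 in macrophage-like and -2.45 in T-like barcodes, 4.45 apart, with 17 and 5 UMIs in the T-like ones. It was at -0.73 in endothelial-like barcodes, 2.73 below the macrophage-like value. The T-like interval held 0 without the highest Scrublet scores (-3.81 to 0.47) and without UMIs of other lineages (-4.12 to 1.25). In T-like barcodes the endothelial markers *Kdr* (3.17 and 15.4 CPM) and *Flt1* (5.21 and 22.5 CPM) were also lower in NOD, whereas *Tie1* (0.227 and 0 CPM) was not. The part of endothelial RNA in the T-like *Cd93* value was not tested. None of the 4 differences between lineages was tested either, since each strain has 1 library.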

How the results depend on the processing

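No paired analysis was possible because each strain has 1 library and no result comes from a test. Of 54 recalculated ratios in the lineage where a member was highest, 45 moved by no more than the counting interval, as did 22 of 36 over all barcodes and 52 of 59 in other lineages. *Ptpn22* in macrophage-like barcodes reversed to -0.28 without the highest Scrublet scores and -0.48 without UMIs of other lineages. Thinning to 500 UMIs gave 0.24 for *Slc11a1* in macrophage-like, 0.79 for *Tnfrsf9* in NK-like, -0.31 for *Il2ra* in macrophage-like and -0.63 for *Cd93* in endothelial-like barcodes. Equal weights gave 0.21 for *Tnfrsf9*, -0.68 for *Il2ra* and -0.64 for *Cd93* there, median-of-ratios scaling -0.81 for *Cd93*, and barcodes without UMIs of other lineages -0.18 for *Il2ra*. Over all barcodes, thinning gave -1.48 for *Slc11a1*, 2.36 for *Ptpn22*, 0.48 for *Cd101*, 3.63 for *Tnfrsf9*, -0.45 for *Il2ra* and -1.92 for *Cd93*. Equal weights gave 2.37 for *Ptpn22*, 2.75 for *Tnfrsf9*, -0.51 for *Il2ra* and -1.86 for *Cd93*, and median-of-ratios scaling 1.88 for *Ptpn22*, -0.75 for *Il2ra* and -2.19 for *Cd93*. Without the highest Scrublet scores *Il2ra* was at -0.74 over all barcodes and at -1.57 (2 and 19 UMIs) in endothelial-like ones. The causes were not tested. Genes past the fold numbered 2128 in T-like, 1327 in NK-like, 2120.0 in macrophage-like, 1807 in endothelial-like and 6042 in all barcodes. A log2 ratio of 0.5 made these 5306, 3276, 4759, 4552 and 10697, and a minimum of 1 UMI in each library 3124 in NK-like, 4435 in macrophage-like and 4143 in endothelial-like barcodes. The 86 CD1 T-like barcodes limit every T-like ratio.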
